A study of Saccharomyces cerevisiae with 21 samples.

Results

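The yeast Saccharomyces cerevisiae takes up zinc, stores it in the vacuole and supplies it to the secretory pathway through a small set of membrane transporters, most of them under the transcription factor Zap1. The 9 genes described here are ZAP1 itself and 8 zinc transporter genes, ZRT1, ZRT2, FET4, ZRT3, ZRC1, COT1, MSC2 and ZRG17. They were chosen by name for these roles, though with earlier results of these data known. The array held 5656 genes with a probe set of their own, of which 5461 were tested. All 9 were among the genes tested, and none of their arrays lay at the floor of 12 signal units below which signals were not told apart.

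RNA was measured on 21 Affymetrix YG-S98 arrays from anaerobic chemostats, continuous cultures held at a fixed growth rate by 1 limiting nutrient. There were 7 groups of 3 arrays each. In 5 groups the strain was CEN.PK113-7D, a prototrophic MATa laboratory strain, and the limiting nutrient was zinc (Zn), carbon (C), sulfur (S), nitrogen (N) or phosphorus (P). The other groups were the C-limited and the N-limited msn2 msn4 double mutant (ura3, msn2::loxP, msn4::loxP-kanMX-loxP), which lacks a pair of general stress transcription factors and carries the plasmid p426 with URA3. Dilution rate was 0.10 per hour and pH 5.0 in all groups. The C-limited wild-type medium held 25 g of glucose per litre, whereas the cultures not limited by carbon were set for 17 g per litre of residual glucose. Zinc-limited cultures were grown in vessels washed to remove zinc, and the N-limited wild-type medium held 4.5 mg of zinc sulfate heptahydrate per litre. For the N-limited wild type the label on growth also speaks of glucose limitation and sparging with air, against the titles, which were followed here. The labels name separate cultures for every group except the C-limited wild type, for which p-values may measure technical spread.

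Zap1 is active when zinc is scarce. It then binds the promoters of zinc uptake and zinc mobilisation genes and raises their transcription, its own gene included. Zrt1 and Zrt2 are the high-affinity and low-affinity zinc importers of the plasma membrane, Zrt3 releases zinc from the vacuole, and Zrc1 and Cot1 carry zinc into it.

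Signals were scaled to a common trimmed mean before any comparison. As deposited, the trimmed mean signal was 398 to 466 on the zinc-limited arrays, 235 to 311 on the C-limited and N-limited wild-type arrays and 150.1 to 150.2 on all others. The zinc-limited, C-limited and N-limited wild types each came from a deposit of their own, so that deposit and limitation cannot be told apart in any comparison with zinc limitation. The actin 3'/5' probe ratio, a sign of RNA integrity, ranged from 1.05 to 1.67 over all arrays and from 1.31 to 1.47 under zinc limitation. MSN2 read 12.0 to 13.7 on the mutant arrays and 58.0 to 147 elsewhere, while MSN4 read 34.5 to 55.6 against 47.3 to 153, so its signal was not lost on the mutant arrays. Where its probes lie relative to the deletion was not analysed here. URA3, carried by the mutant's plasmid, read 1087 to 2473 on the mutant arrays and 30.5 to 82.4 elsewhere. The a-cell genes MFA1, MFA2, STE2, STE6 and BAR1 were well above the floor on every array, and ASG7, the other a-cell gene listed, read 12.6 to 51.7. STE6 and ASG7 rose 2.98-fold and 2.52-fold under zinc against C limitation. Of 4 alpha-cell genes, MF(ALPHA)2 was at the floor on all arrays, STE3 read 15.0 to 39.5 and SAG1 22.5 to 130.1, while the pheromone gene MF(ALPHA)1 read 402, 202 and 311 on the zinc-limited arrays and 25.8 to 173 on the others. It rose 5.98-fold against C limitation. The part of these mating-type genes in the results below was not tested. Replicate 1 of the C-limited mutant stood apart from its group, and results that rest on it are given with and without it. Each array read RNA from a whole culture, in which fewer cells with a transcript and less of it per cell cannot be told apart.

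Zinc limitation against each of the other wild-type limitations asked which zinc transport genes respond to zinc shortage as such. ZAP1, ZRT1, ZRT2, ZRT3, FET4 and ZRG17 rose under zinc limitation against every other limitation, ZRC1 rose against all but N limitation, and COT1 and MSC2 passed both thresholds against none in this fit, though each did against 1 limitation or more in some other settings given below. A gene is said to have risen or fallen at an adjusted p under 0.05 in limma, with Benjamini-Hochberg adjustment over all 5461 genes, and a fold of at least 2. Against C limitation 7 of the 9 genes rose and 0 fell, where 14.8% of all genes tested changed and 9.05% rose. Against N limitation 6 rose (7.89% of all genes changed and 4.52% rose), against S limitation 7 rose (15.8% and 10.6%), and against P limitation 7 rose (15.2% and 11.9%). The 6 genes that rose against each of the 4 compare with 2.33% of all genes that did so. The 4 comparisons share the 3 zinc-limited arrays. For 7 of the 9 genes all 3 zinc-limited arrays lay above all 18 others, as they did for 6.34% of all genes tested.

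**Figure D1:**
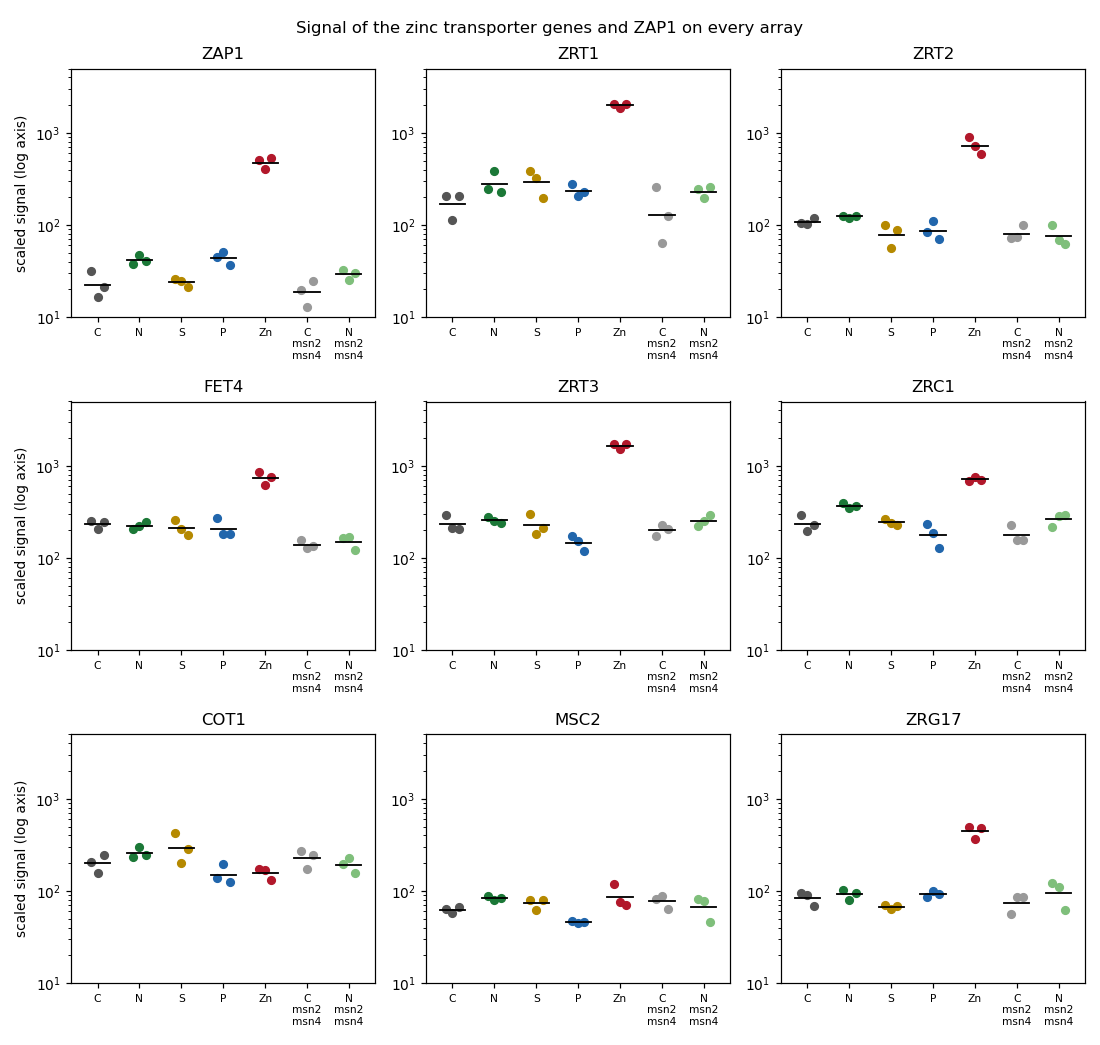
Scaled signal (log axis) of ZAP1 and the 8 zinc transporter genes on every array. Each point is 1 array, the line is the geometric mean of the 3 arrays of a group, and the groups are the wild type under C, N, S, P and Zn limitation and the msn2 msn4 mutant under C and N limitation. In every panel but those of COT1 and MSC2 the zinc-limited points (red) lie above all other points.

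ZAP1 encodes the zinc-sensing activator. Its signal was 502, 408 and 530 on the 3 zinc-limited arrays. It was 31.9, 16.4 and 21.4 under C limitation, 37.4, 46.7 and 40.4 under N limitation, 25.7, 24.4 and 21.4 under S limitation and 45.4, 50.7 and 36.9 under P limitation. No other array came near the zinc-limited ones, and the other groups were all dim. The mean was 480.1 ± 63.9 (SD, n = 3) under zinc limitation and 23.2 ± 7.93 (SD, n = 3) under C limitation. The log2 difference was 4.41 ± 0.24 (SE), a 21.3-fold rise (adjusted p = 3.77e-10, limma), the 8th largest rise among the 5461 genes. The smallest of the 4 folds was 10.9, against P limitation.

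ZRT1 encodes the high-affinity zinc importer. Its signal was 2058, 1873 and 2084 under zinc limitation. Other limitations gave 205, 114 and 207 (C), 245, 386 and 227 (N), 389, 326 and 198 (S) and 281, 207 and 227 (P). The 4 groups without zinc limitation overlapped each other in the order of their means, and none overlapped the zinc-limited group. ZRT1 rose 11.8-fold against C limitation, with a log2 difference of 3.56 ± 0.38 (SE, adjusted p = 2.04e-06, limma). Against S limitation, the group with the next highest mean, the fold was 6.85.

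The array carries 4 single-gene probe sets for ZRT1, and they disagree on the size of the rise. The values above come from 5258_at, which has the highest mean signal over all arrays. The 2252_g_at probe set read 774, 774 and 694 under zinc limitation and 20.2, 26.7 and 28.2 under C limitation, a 30.1-fold difference. With 2253_s_at the signals were 2523, 2615 and 2356 against 86.6, 25.1 and 85.7, a 43.7-fold difference. The remaining probe set, 2251_at, read 35.4, 33.7 and 45.0 against 58.9, 50.8 and 56.0, with a log2 difference of -0.55 ± 0.33 (SE) and an adjusted p of 0.239 (limma, all probe sets tested). Thus 3 of the 4 probe sets rose and 1 did not pass the test. Under S limitation 5258_at averaged 304 against 176 under C limitation, whereas 2252_g_at averaged 24.2 against 25.0. The order of the limitations below zinc therefore depended on the probe set. The cause was not tested.

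**Figure D2:**
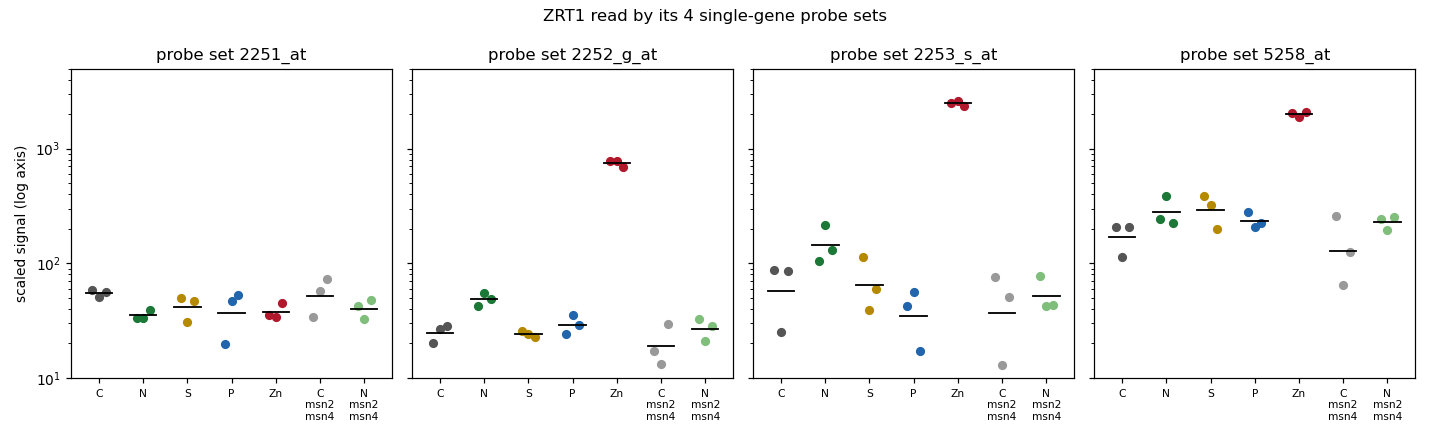
Scaled signal (log axis) of the 4 probe sets that match ZRT1 alone, on every array, with the geometric mean of each group as a line. The zinc-limited arrays stand above all others in 3 panels (2252_g_at, 2253_s_at and 5258_at) and not in that of 2251_at, where they read 33.7 to 45.0.

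ZRT2 encodes the low-affinity importer, whose promoter is known to hold Zap1 sites that activate and one that represses. Its signal was 909, 725 and 584 under zinc limitation. Under C limitation it was 104, 103 and 118, under N limitation 125, 120.5 and 127, under S limitation 99.2, 55.8 and 87.7, and under P limitation 83.3, 109.8 and 69.6. The lowest zinc-limited array was far above the highest of the others. ZRT2 rose 6.71-fold against C limitation (log2 2.75 ± 0.24 SE), and its smallest fold was 5.87, against N limitation.

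FET4 encodes a low-affinity carrier of the plasma membrane that moves iron, copper and zinc. The 3 zinc-limited arrays gave 850, 619 and 762 signal units. The other wild-type groups were flat, at 252, 205 and 248 (C), 205, 223 and 244 (N), 257, 204 and 178 (S) and 273, 182 and 182 (P). Their geometric means spanned 1.12-fold, the narrowest span among the 9 genes. FET4 rose 3.15-fold against C limitation (log2 1.66 ± 0.20 SE, adjusted p = 5.62e-06, limma), and its folds against the other limitations were 3.30 (N), 3.50 (S) and 3.54 (P).

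Of the vacuolar transporters, ZRT3, the exporter, gave 1729, 1537 and 1732 under zinc limitation. It gave 293, 210.3 and 207 under C limitation, 279, 254 and 239 under N limitation, 300.3, 182 and 213 under S limitation and 171, 152 and 119.8 under P limitation. P limitation was the lowest of the 5 and did not overlap the C-limited, N-limited or S-limited arrays. ZRT3 rose 7.11-fold against C limitation (log2 2.83 ± 0.20 SE) and 11.4-fold against P limitation (log2 3.51 ± 0.20 SE).

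ZRC1 encodes the main zinc importer of the vacuole and is also a Zap1 target. It gave 677, 753 and 708 under zinc limitation and 390.5, 348 and 363 under N limitation, the group with the next highest mean. C limitation gave 290.4, 195 and 228, S limitation 263, 240.4 and 228, and P limitation 236, 184 and 129. Zinc-limited and N-limited arrays did not overlap. ZRC1 rose 3.03-fold against C limitation (log2 1.60 ± 0.21 SE), 2.93-fold against S limitation and 4.01-fold against P limitation. Against N limitation its fold was 1.94, just under the threshold of 2, with a log2 difference of 0.96 ± 0.21 (SE) and an adjusted p of 0.0038 (limma). Without replicate 1 of the N-limited wild type the log2 difference was 1.00 and the gene passed both thresholds.

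COT1, the other vacuolar importer, which also confers cobalt tolerance, is not known as a Zap1 target. It gave 171, 167 and 131 under zinc limitation and 205, 157 and 243 under C limitation, and these groups overlapped. S limitation gave the highest mean, with 425, 199 and 287, and P limitation the lowest, with 138, 195 and 125. Against C limitation the log2 difference was -0.35 (95% interval -0.90 to 0.19, adjusted p = 0.331, limma). Its sign under zinc limitation against C limitation turned when the values were taken as deposited (0.46). Against S limitation it was -0.90 ± 0.26 (SE, adjusted p = 0.0131, limma), short of a fold of 2. That difference passed both thresholds, as lower, with median scaling (-1.27) and without replicate 2 of the S-limited arrays (-1.17), and it was 0.59 with the values as deposited.

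MSC2 and ZRG17 encode partners of a zinc transport complex in the endoplasmic reticulum, of which ZRG17 is a known Zap1 target and MSC2 is not. ZRG17 gave 495, 368 and 476 under zinc limitation, against 95.0, 90.3 and 69.1 under C, 102, 79.3 and 94.4 under N, 69.6, 64.1 and 68.2 under S and 86.8, 100.0 and 92.0 under P limitation. It rose 5.27-fold against C limitation (log2 2.40 ± 0.23 SE), and its smallest fold was 4.77, against P limitation. MSC2 gave 119, 76.2 and 70.4 under zinc limitation and 63.1, 57.4 and 66.4 under C limitation, without overlap. Its log2 difference was 0.47 (95% interval 0.02 to 0.93, adjusted p = 0.112, limma), so the interval leaves out a doubling. MSC2 under P limitation gave 46.7, 44.6 and 46.2, and the log2 difference of zinc from P limitation was 0.91 ± 0.22 (SE, adjusted p = 0.0042, limma), again short of a fold of 2. Without zinc-limited replicate 2 or replicate 3 it was 1.00 or 1.06, and MSC2 passed both thresholds. The partners of 1 complex thus had unlike values, with intervals of 1.92 to 2.88 for ZRG17 and 0.02 to 0.93 for MSC2 against C limitation. The difference between these 2 genes was not tested.

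**Figure D3:**
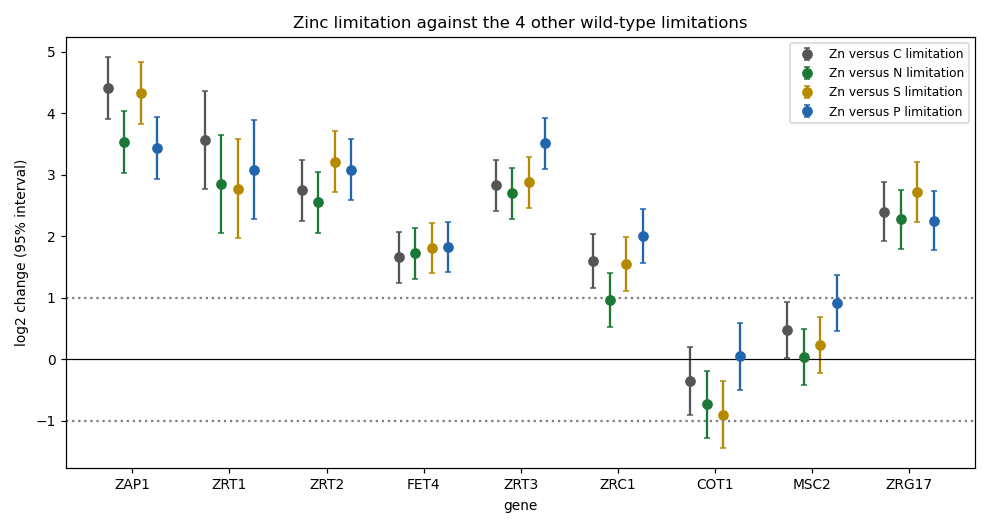
Log2 difference of zinc limitation from C, N, S and P limitation in the wild type for each of the 9 genes, with 95% intervals from the fit and dotted lines at a fold of 2. ZAP1, ZRT1, ZRT2, FET4, ZRT3 and ZRG17 lie above the upper line in all 4 comparisons, ZRC1 against N limitation lies at 0.96, and COT1 and MSC2 lie within the lines.

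The median log2 difference of the 9 genes was 2.40 against C limitation, 2.28 against N, 2.72 against S and 2.25 against P limitation. Over all genes tested the medians were 0.05, -0.06, 0.12 and 0.22.

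Between the limitations other than zinc, none of the 9 genes passed both thresholds (limma). In N against C limitation 0 of 9 changed, where 10.4% of all genes did. At an unadjusted p under 0.05 there were 2, beside 36.8% of all genes. For S against C limitation the count was 0 of 9 (10.8% of all genes), with 0 at an unadjusted p under 0.05 (34.9%). For P against C limitation it was 0 of 9 (11.7%), with 2 at an unadjusted p under 0.05 (38.0%). For P against S limitation it was 0 of 9 (4.23%), with 5 (20.9%). P and S limitation share a deposit, so this last comparison lies within 1 deposit. The log2 differences of the 9 genes ran from -0.07 to 0.89 in N against C, from -0.46 to 0.79 in S against C, from -0.68 to 0.97 in P against C and from -0.95 to 0.89 in P against S limitation.

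Some smaller differences passed the adjusted p but not the fold of 2. ZAP1 was higher in N than in C limitation by 0.89 ± 0.24 (log2, SE, adjusted p = 0.0135, limma) and in P than in C limitation by 0.97 ± 0.24 (adjusted p = 0.0064). Its P-limited arrays were also above its S-limited ones, by 0.89 ± 0.24 (adjusted p = 0.0283). ZAP1 in N and P limitation thus read 36.9 to 50.7 and in C and S limitation 16.4 to 31.9, without overlap. The limitations were paired in this way after the values were seen, and how many of all genes split so was not counted. The C-limited and S-limited signals were dim and not far above the floor. Without replicate 1 of the C-limited wild type, the differences of ZAP1 from C limitation were 1.14 (N) and 1.23 (P) and passed both thresholds. ZRC1 was 1.56-fold higher in N than in C limitation (adjusted p = 0.033). ZRT3 was lower in P than in C limitation by a log2 difference of -0.68 ± 0.20 (SE, adjusted p = 0.0175), and COT1 was lower in P than in S limitation by -0.95 ± 0.26 (adjusted p = 0.0306). Over the other settings tried these ZAP1 differences went down to 0.43 (N against C), 0.30 (P against C) and 0.55 (P against S). Their adjusted p (limma) reached 0.0833, 0.3 and 0.0973. For ZRC1, ZRT3 and COT1 it reached 0.253, 0.0968 and 0.255.

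The msn2 msn4 comparisons asked whether the zinc genes depend on the general stress factors when zinc is not limiting. None of the 9 genes passed both thresholds in the mutant against the wild type, with 0 of 9 in C limitation (4.03% of all genes changed) and 0 of 9 in N limitation (7.84%). At an unadjusted p under 0.05 there were 1 and 4 genes, beside 23.7% and 34.2% of all genes. Without replicate 1 of the C-limited mutant, 0 of 9 changed in C limitation (2.58% of all genes). There were then 3 at an unadjusted p under 0.05, beside 17.8% of all genes. The mutant and the wild-type groups compared come from different deposits.

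FET4 and ZRT2 had the lowest adjusted p-values in these comparisons. FET4 gave 155, 127 and 135 on the C-limited mutant arrays and 164, 171 and 121 on the N-limited ones. The 12 wild-type arrays not limited by zinc read 178 to 273, above all 6 mutant arrays. How many of all genes do so was not counted. The wild-type arrays of the mutant's own deposit were under S or P limitation. Strain was thus not compared within 1 deposit under the same limitation, and the part of the deposit was not tested. The log2 difference of FET4 was -0.76 ± 0.20 (SE, adjusted p = 0.0246, limma) in C limitation and -0.57 ± 0.20 (adjusted p = 0.0494) in N limitation, both under a fold of 2. Without replicate 1 of the C-limited mutant it was -0.84 (adjusted p = 0.0398) in C limitation. ZRT2 in N limitation gave 99.7, 69.4 and 61.5 in the mutant, all below the wild type, with a log2 difference of -0.72 ± 0.24 (SE, adjusted p = 0.0431). Over the other settings tried the adjusted p reached 0.268 for FET4 in N limitation, 0.0987 for FET4 in C limitation and 0.165 for ZRT2.

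**Figure D4:**
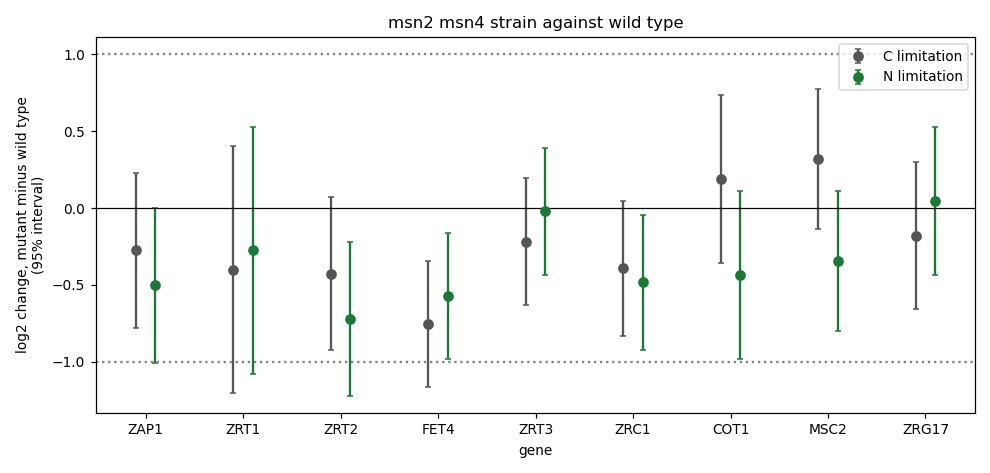
Log2 difference of the msn2 msn4 mutant from the wild type under C and N limitation for each of the 9 genes, with 95% intervals from the fit and dotted lines at a fold of 2. All 18 points lie within the lines, and the intervals of FET4 lie below 0 in both limitations.

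Within the mutant, 0 of 9 genes changed between N and C limitation, where 0.0549% of all genes did. At an unadjusted p under 0.05 (limma) there were 3, beside 10.5% of all genes. ZRT1 gave 261, 64.1 and 126 on the C-limited and 244, 195 and 255 on the N-limited mutant arrays. The first of these, replicate 1 of the C-limited mutant, lay in the N-limited range. ADH4 and ZPS1, Zap1 targets described below, read 288 and 299 on that array, 166 to 170.3 and 67.1 to 86.1 on the other C-limited mutant arrays, and 233 to 312 and 185 to 247 on the N-limited ones. Not all members lay so. On that array ZRT3 read 173 and ZRG17 55.8, below their N-limited mutant ranges of 223 to 291 and 62.3 to 122. Without that array ZRT1 was higher in N limitation by 1.35 (log2, adjusted p = 0.0166, limma) and was the 1 gene of the 9 to pass both thresholds, and 5.16% of all genes did. The mutant effect in N limitation minus that in C limitation passed the thresholds for 0 of 9 genes (1.50% of all genes). At an unadjusted p under 0.05 there was 1, beside 16.9% of all genes. Without that array the count was also 0 of 9 (2.47% of all genes), with 0 at an unadjusted p under 0.05 (23.0%).

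Other genes of the zinc response were taken from a list of 23 known or proposed Zap1 targets outside the transporters, of which 22 were measured. Of these 17 rose and 0 fell under zinc limitation against C limitation, with a median log2 difference of 1.67 beside 0.05 for all genes, of which 9.05% rose. Counts of genes that rose were 13 against N, 13 against S and 17 against P limitation, beside 4.52%, 10.6% and 11.9% of all genes. The 10 that rose against all 4 compare with 2.33% of all genes. All these counts include YOR387C and VEL1, which were tested only through the zinc-limited arrays, so that they could only be higher there. The list was made with earlier results of these data known. YOR387C and VEL1, close paralogues whose signals an array may not keep apart, were at the floor on all 18 arrays without zinc limitation. YOR387C read 2763, 3008 and 2641 under zinc limitation, at least 233-fold higher than in C limitation, and VEL1 read 1113, 1006 and 1024, at least 87.2-fold higher. ZPS1, which encodes a putative cell wall protein, rose 45.4-fold, HAB1 19.5-fold and RTC4 15.1-fold. ADH4, an alcohol dehydrogenase gene, rose 18.9-fold, to 2891 ± 129 (SD, n = 3).

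Some targets encode proteins of lipid metabolism or of membranes. DPP1, a phosphatase gene of vacuolar lipid metabolism, rose 3.31-fold and MCD4, of glycolipid anchor synthesis, 2.93-fold against C limitation. IZH2 and IZH4, membrane protein genes linked to zinc, rose 2.05-fold and 2.03-fold, close to the threshold, and did not pass with median scaling (log2 0.79 and 0.78). IZH1 (log2 0.83), EKI1 (0.87), an ethanolamine kinase gene, and PIS1 (-0.84), the phosphatidylinositol synthase gene, had adjusted p-values of 0.00159, 0.00323 and 0.0032 (limma) with folds under 2. With median scaling PIS1 passed as lower (-1.09), and the list had 14 genes higher and 1 lower against C limitation.

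**Figure D5:**
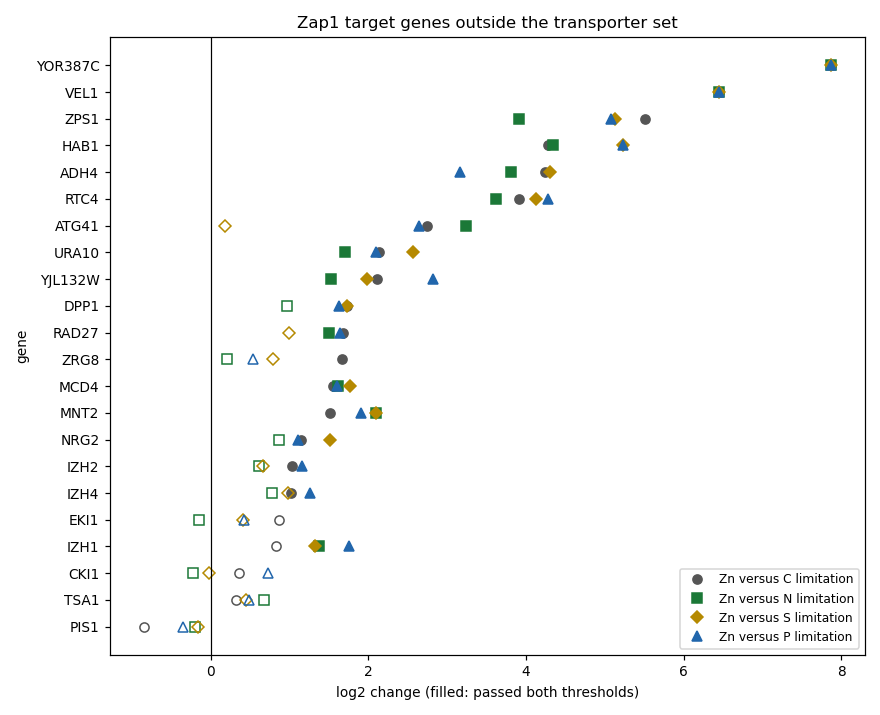
Log2 difference of zinc limitation from C, N, S and P limitation in the wild type for the 22 measured Zap1 target genes outside the transporters, ordered by the difference from C limitation. Filled symbols passed both thresholds and open ones did not. YOR387C and VEL1, at the floor without zinc limitation, show lower bounds. Open symbols include ATG41 against S limitation at 0.19 and all 4 comparisons of PIS1, TSA1, CKI1 and EKI1.

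ADH1 and ADH3, the zinc-dependent alcohol dehydrogenase genes that Zap1 is known to repress, fell against all 4 other limitations. Of the 5461 genes tested, 312 fell against C, 184 against N, 281 against S and 179 against P limitation. The share of all genes that fell against all 4 was not counted. ADH1 gave 2010, 1732 and 2259 under zinc limitation and 6299, 7294 and 6015 under C limitation, a 3.28-fold fall. ADH3 gave 580, 547 and 657 against 1980, 2297 and 1902, a 3.46-fold fall. The smallest folds were 2.05 for ADH1, against N limitation, and 2.07 for ADH3, against S limitation. With median scaling 1 of the 2 genes passed against N limitation, and with quantile normalisation 1 of 2 passed against N and 1 of 2 against S limitation. The log2 difference of ADH1 from C limitation was -1.02 with quantile normalisation. With the values as deposited the log2 differences from C limitation were -0.90 and -0.98, and neither gene passed against any of the 4 limitations. Among 11 genes of zinc enzymes, which include these, 1 rose and 3 fell against C limitation, where 14.8% of all genes changed and 9.05% rose. SOD1, superoxide dismutase, fell 2.52-fold and PHO8, the vacuolar alkaline phosphatase, rose 2.02-fold. PHO8 did not pass with median scaling or quantile normalisation (log2 0.77 and 0.98). Its log2 difference from P limitation was -1.39, and neither SOD1 nor PHO8 passed in 1 direction against all 4 limitations.

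Carriers of other metals and other zinc-related carriers gave a mixed picture, with 5 of 18 higher and 1 lower against C limitation, where 14.8% of all genes changed and 9.05% rose. The iron uptake genes FET3, FTR1 and ARN1 rose 4.05-fold, 3.16-fold and 3.50-fold. SIT1, also an iron uptake gene on the list, did not pass against C limitation (log2 1.07, adjusted p = 0.053, limma). Its log2 difference from N limitation was -1.03. FTR1 read 445, 277 and 432 under zinc limitation and 131, 79.7 and 163 under C limitation, and up to 258 under S limitation. Against S limitation the log2 differences were 0.65 for FET3, 0.73 for FTR1 and 1.02 for ARN1, and none of these genes rose against all 4 limitations. PHO84, the high-affinity phosphate transporter gene that also carries metals, rose 15.7-fold to 345, 553 and 454, but read 3414, 4348 and 4009 under P limitation. MRS3, a mitochondrial iron carrier gene, was at or near the floor under zinc limitation (12.0, 13.2 and 12.0) and at 148, 107 and 96.6 under C limitation, at least 9.29-fold lower. It was the 1 gene of the 18 that differed from all 4 limitations in 1 direction. CTR1, the copper importer gene, had a log2 difference of 0.39 (adjusted p = 0.199, limma).

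Across the 21 arrays, the signals of ZAP1 and of the 6 transporter genes that rose went together, but mostly through the 3 zinc-limited arrays. These correlations are descriptions over arrays that share groups and deposits. ZAP1 with ZRT1 had a Pearson r of 0.94 over all 21 arrays and 0.62 over the 18 without zinc limitation. For ZAP1 with ZRT3 the values were 0.89 and -0.11, for ZRT1 with ZRT2 0.85 and 0.03, and for ZRT3 with FET4 0.87 and 0.07. ZRT3 with ZRC1, the vacuolar exporter and importer, kept more, with 0.90 and 0.70. COT1 and MSC2 had 0.43 with each other over all arrays and 0.67 over the 18.

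The gene with the pattern most like that of ZAP1 over the 21 arrays was ADH4 (r = 0.95), followed by URA10 (0.95), YMR230W-A, VEL1 and YOR387C. For ZRT1 it was ZPS1 (0.91), followed by HSP30 (0.90), VEL1, YMR230W-A and YOR387C. ZRT2 was nearest to HAB1 (0.96), FET4 to YOL131W (0.92) and ZRG17 to YMR230W-A (0.95). YMR230W-A, VEL1 and YOR387C were at the floor on all 18 arrays without zinc limitation and were tested only through the zinc-limited ones. Their r thus rests on the zinc-limited arrays. YMR230W-A averaged only 21.8 there (log2 0.86 against C limitation). Over the 18 arrays r was 0.54 for ZAP1 with ADH4 and 0.48 for ZRT1 with ZPS1. It was 0.54 for ZRT2 with HAB1 and 0.43 for FET4 with YOL131W. ZRT3 and ZRC1 were both nearest to FRE1, which encodes a plasma membrane metal reductase (0.97 and 0.91), and kept r of 0.78 and 0.76 with it over the 18 arrays without zinc limitation. COT1 was nearest to VMA13, a subunit of the vacuolar proton pump (0.81), and MSC2 to NOP12 (0.88), both with nearly the same r without the zinc-limited arrays (0.77 and 0.88).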

How the data were processed

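The authors deposited 1 table of linear signal intensity from GCOS (version 1.2 where stated), per the submitters' processing notes, for 9335 probe sets on 21 arrays. Per the labels' protocols, signals under 12 were set to 12 on S-limited, P-limited and mutant arrays, but the deposited table holds lower values there. Here a scale factor per array gave all arrays the same 2% trimmed mean (150.2), a floor of 12 was set, and tests used log2 signals. Among probe sets, 6504 matched 1 gene, 328 matched several, 2443 had none listed and 60 were controls. The brightest probe set stood for each of 5656 genes, and 195 genes at the floor on all arrays were left out. Names follow the R64 annotation through gene IDs. Means of 7 groups were fitted over all arrays with limma 3.58.1 in R 4.3.3, and the script was tested on simulated data. Folds are ratios of geometric means, and the number of arrays limits the precision. The members and lists were chosen with earlier results of these data known. Besides the 9 genes, the text names MSN2, MSN4 and URA3, up to 6 called and 3 uncalled genes per list, nearest patterns, and a few list members picked after their values were seen. Alternatives were other scalings, floors, filters, probe set rules, fits and leaving out each array. No sequences were used here.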

Additional observations from a re-analysis of the deposited data

How the results depend on the processing

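The calls of the 9 genes in zinc limitation against the 4 other wild-type limitations were kept under all alternatives. There were 27 such calls, and over 2106 gene values recomputed 0 calls were lost and no called value turned its sign, while 68 uncalled values did and 38 calls were gained, 23 of them with the values as deposited. That setting leaves in the brighter scale of the zinc-limited arrays, on which the median of all genes was higher by 0.86 (C), 0.54 (N), 1.57 (S) and 1.68 (P). It called 2280 genes higher and 64 lower against C limitation instead of 494 and 312. With it 8 (C), 7 (N), 8 (S) and 9 (P) members rose under zinc limitation in place of 7, 6, 7 and 7, MSC2 against C (1.28) and COT1 against P limitation (1.54) among them. The members called were 1 in N against C, 1 in S against C, 5 in P against C limitation, 4 for the mutant in C and 7 in N limitation, in place of 0. Median scaling and quantile normalisation each gave 1 (ZAP1) in P against C limitation, and median scaling also called COT1 lower in zinc against S limitation (-1.27). Leaving out 1 array gave 0 to 1 in N against C, P against C and P against S limitation. COT1 passed in P against S without S-limited replicate 2 (-1.22) or P-limited replicate 2 (-1.14), and ZAP1 without P-limited replicate 3 (1.01, and 1.10 against C). In the zinc comparisons it gained ZRC1 against N (1.00), COT1, lower, against S (-1.17) and MSC2 against P limitation (1.00 and 1.06). It also gave 0 to 1 within the mutant, where without replicate 1 of the C-limited mutant 1 member and 108 genes higher and 174 lower were called, against 2 and 1 with it. Without it the mutant comparison in C limitation called 66 higher and 75 lower instead of 112 and 108. In the zinc comparisons the uncalled differences that turned were MSC2 from S (-0.13, median scaling), COT1 from P (-0.41 with median scaling, -0.11 with quantile normalisation, from -0.081 to 0.24 leaving out 1 array), MSC2 from N limitation (from -0.20 to 0.18 leaving out 1 array), and COT1 as deposited from C (0.46) and S (0.59). The share of called genes that were higher went from 61.3% (C), 67.4% (S) and 78.5% (P) to 39.7%, 31.5% and 32.8% with median scaling, and to 54.0% (S) and 50.8% (P) with quantile normalisation. It went from 63.0% to 30.5% and 48.0% in N against C, from 33.9% to 54.6% and 50.1% in P against C and from 29.9% to 67.2% and 52.7% for the mutant in N limitation. With shared replicate numbers as a block, 7 members rose against C limitation and no member's call changed. Correlations of the deviations of same-numbered arrays ran from -0.26 to 0.30, over 0.1 in 5 of 33 pairs. Arrays with unlike numbers were not compared, so whether the numbers pair the arrays was not tested. The cause of these changes was not tested beyond the scale itself, and dim signals near 12, as for ZAP1 without zinc limitation, limit how small a level could be read.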

Other observations

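Genes that lie beside the members on the chromosomes were looked at after the values were seen. The R64 annotation gives 36 protein-coding genes within 2 genes of a member on either side, of which 28 were tested. Under zinc against C limitation 7 of them rose and 2 fell, where 14.8% of all genes changed and 9.05% rose. On 1 side of ZRT1 lie ADH4, MNT2 and, next along, VEL1, all on the list of Zap1 targets. ADH4 rose 18.9-fold and MNT2, a mannosyltransferase gene, 2.86-fold, whereas on the other side FZF1 (log2 -0.30, adjusted p = 0.249, limma) and HXK2, a hexokinase gene (log2 -0.43, adjusted p = 0.227, limma), did not pass the test. Beside ZRC1, YMR244W read 140 ± 59.3 (SD, n = 3) under zinc limitation and 12.6 ± 0.081 (SD, n = 3) under C limitation, and it rose against all 4 limitations.

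Beside FET4, ADH6, an alcohol dehydrogenase gene that uses NADPH, read 23.3 ± 9.85 (SD, n = 3) under zinc limitation and 222 ± 22.1 (SD, n = 3) under C limitation, and it fell against all 4 limitations. FAA1, a fatty acyl-CoA synthetase gene near COT1, rose 5.82-fold against C limitation, while COT1 itself did not pass the test. The 4 tested neighbours of ZRG17, the 3 of ZRT2 and those of ZAP1 did not pass both thresholds. UME6 near MSC2, YMR317W near FET4 and TPO5 beside ZRT3 rose 2.67-fold, 2.23-fold and 2.03-fold against C limitation. SFG1 beside COT1 fell 2.07-fold.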
